A study of Mus musculus with 24 samples.

Results

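The cytosolic ribosomal protein genes of mouse splenic T cells are described here. A gene was a member if its name was Rpl or Rps with a number and at most 1 letter a, l, x or y, or Rpsa, with Rpl22, Rpl22l1 and Rps27l left out. It also needed at least 10 counts in at least 3 libraries. The names matched 77 genes, of which Rpl10l did not reach the count rule, so there were 76 members among the 34113 genes of the table, 31 of the small and 45 of the large subunit. The stalk proteins Rplp0, Rplp1 and Rplp2 and the mitochondrial ribosomal proteins are not members. The rule used gene names and a count minimum, not a comparison. The low-count copy Rpl3l, however, reached that minimum only in libraries with lymphoma.

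T cells came from spleens of C57BL/6N mice that were either wild type for the DNA damage kinase gene Atm (Atmwt/wt) or lacked it (Atm-/-), and that had received no transplant or a transplanted B-cell lymphoma. Each of the 8 groups (CD4 or CD8 co-receptor, wild type or knockout, control or lymphoma) had 3 libraries made with a 3′ mRNA kit, which reads a tag near the poly(A) tail of each transcript. Each library came from a pool of 1 to 3 mice, and the CD4 and the CD8 library of a pool came from the same animals, 22 mice in 12 pools. Every wild-type lymphoma library held 1 mouse, and all other libraries 2 or 3. Mice per library thus differed along with transplant in wild-type mice, and along with genotype among mice with lymphoma. These cannot be told apart. All groups shared the strain and the magnetic T cell isolation. How CD4 and CD8 cells were then separated, and the age, sex and Atm allele of the mice, are not stated in the sources that were read.

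The cytosolic ribosome is built from a small subunit, which holds the mRNA and reads the code, and a large subunit, which joins the amino acids. The genes for its proteins are transcribed in every cell, mostly from promoters that lack a TATA box and start in a run of pyrimidines. That run becomes the start of the mRNA, the terminal oligopyrimidine or TOP motif, through which mTORC1 regulates the translation of these mRNAs. Naive T cells keep low translation rates, and activation raises ribosome production.

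Promoters are shown because the members moved together. RefSeq promoters on GRCm38.p6, 250 bases before to 50 after the start, were matched by symbol for 55 of the 76 members. The letters CCGGAAG, the core bound by ETS factors such as GABP, were found on either strand in 23 of the 55 (41.8%), against 9.93% of the 27025 genes in the table. A run of at least 8 C or T letters that touched the 20 bases on either side of the start was found in 30 of 55 (54.5%), against 23.7% of all genes. The E-box letters CACGTG, which read the same on both strands, were found in 6 (10.9%, against 8.09%), and TATAA in the 50 bases before the start, on the sense strand, in 4 (7.27%, against 5.89%). A match is a stretch of letters, not a measured binding site. The 6 promoters below belong to the first 6 genes, by p-value, with a single RefSeq promoter among the members that were higher in CD8 than in CD4 libraries of untreated knockout mice. Each runs 5′ to 3′ on the gene's strand from 60 bases before the start to 20 after it. Capitals mark CCGGAAG or a pyrimidine run that meets the rule above.
Rpl41: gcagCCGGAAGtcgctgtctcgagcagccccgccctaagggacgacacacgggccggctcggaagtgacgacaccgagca
Rps10: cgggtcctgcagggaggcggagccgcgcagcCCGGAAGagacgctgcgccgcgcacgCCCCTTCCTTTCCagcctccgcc
Rpl38: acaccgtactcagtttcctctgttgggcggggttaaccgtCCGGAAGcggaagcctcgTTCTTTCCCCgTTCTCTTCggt
Rpl13: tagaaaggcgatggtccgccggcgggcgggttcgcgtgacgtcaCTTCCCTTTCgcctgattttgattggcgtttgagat
Rpl28: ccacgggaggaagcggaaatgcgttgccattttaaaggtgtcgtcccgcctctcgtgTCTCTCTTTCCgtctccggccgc
Rpl27: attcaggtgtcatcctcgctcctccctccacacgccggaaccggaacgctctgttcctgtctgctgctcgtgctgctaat

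These stretches lie at chr10:128549149-128549228 (Rpl41, minus strand), chr17:27635225-27635304 (Rps10, minus strand) and chr11:114668520-114668599 (Rpl38, plus strand). The others lie at chr8:123102290-123102369 (Rpl13), chr7:4792905-4792984 (Rpl28) and chr11:101442185-101442264 (Rpl27), all on the plus strand. Rpl41, Rps10 and Rpl38 carried CCGGAAG within the window shown. Rpl38, Rps10, Rpl13 and Rpl28 carried a pyrimidine run that touched the 20 bases on either side of the start. Rpl27 carried neither there, and its run of C and T letters further before the start lies outside that rule. Of the 25 members that were higher in that comparison, 18 had a promoter in the table and 9 of these held CCGGAAG, against 14 of the 37 other members with a promoter. A pyrimidine run was found in 10 of these 18 and 20 of the 37, CACGTG in 0 and 6, and TATAA in 2 and 2. These splits were not tested. The members map to 19 chromosomes in GENCODE M21 on GRCm38, 13 of them to chromosome 7, and Rpl10, Rpl36a, Rpl39 and Rps4x to the X chromosome.

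Libraries held 6470482 to 10196062 counts. Atm was lower in each knockout group than in its wild-type counterpart, at 177 CPM in CD4 wild-type and 82.2 CPM in CD4 knockout control libraries (CPM, the usual scaling of counts to a normalised library size). Cd4 ranged from 63.5 to 135 CPM in CD4 libraries and from 1.51 to 8.31 CPM in CD8 libraries, and Cd8a from 2.77 to 23.1 CPM and from 149 to 556 CPM. Transcripts of other cell types were present. Erythroid genes summed to between 427 and 69007 CPM, highest in CD8 knockout lymphoma replicate 1, and B cell genes to between 239 and 3063 CPM, highest in the same library. In such bulk samples, fewer cells of a type and less RNA per cell cannot be told apart.

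The members took 35321431 counts over the 24 libraries. Their summed level was lower in the CD4 than in the CD8 library of the same mice in all knockout pools. The same held in all wild-type pools with lymphoma. In CD4 wild-type controls it was 186150, 220283 and 158502 CPM, a mean of 188312 ± 30947 (SD, n = 3) or 18.6% of all counts. In CD4 knockout controls it was 160309, 134858 and 152802 CPM (149323 ± 13077, 15.4%). In CD8 wild-type controls it was 184820, 217475 and 187986 CPM (196760 ± 18009, 19.1%), and in CD8 knockout controls 194332, 203402 and 217743 CPM (205159 ± 11804, 19.9%). Thus all CD8 knockout controls lay above all CD4 knockout controls, whereas the wild-type controls of both co-receptors overlapped.

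In mice with lymphoma, the sums were 159910, 158833 and 153812 CPM in CD4 wild-type libraries (157518 ± 3255, 16.2%). They were 124372, 170426 and 132884 CPM in CD4 knockout libraries (142561 ± 24505, 14.9%). CD8 wild-type libraries held 195857, 187341 and 168031 CPM (183743 ± 14258), and CD8 knockout libraries 156382, 186636 and 199355 CPM (180791 ± 22075, 17.5%). Within a pool, the CD8 library had the higher sum in 10 of 12 pools. The exceptions were the first and second wild-type control pools, with CD8 to CD4 ratios of 0.993 and 0.987. Ratios in the knockout control pools were 1.21, 1.51 and 1.43. Small and large subunit genes moved together: the ratio of their sums had group means of 1.26 to 1.31.

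**Figure D1:**
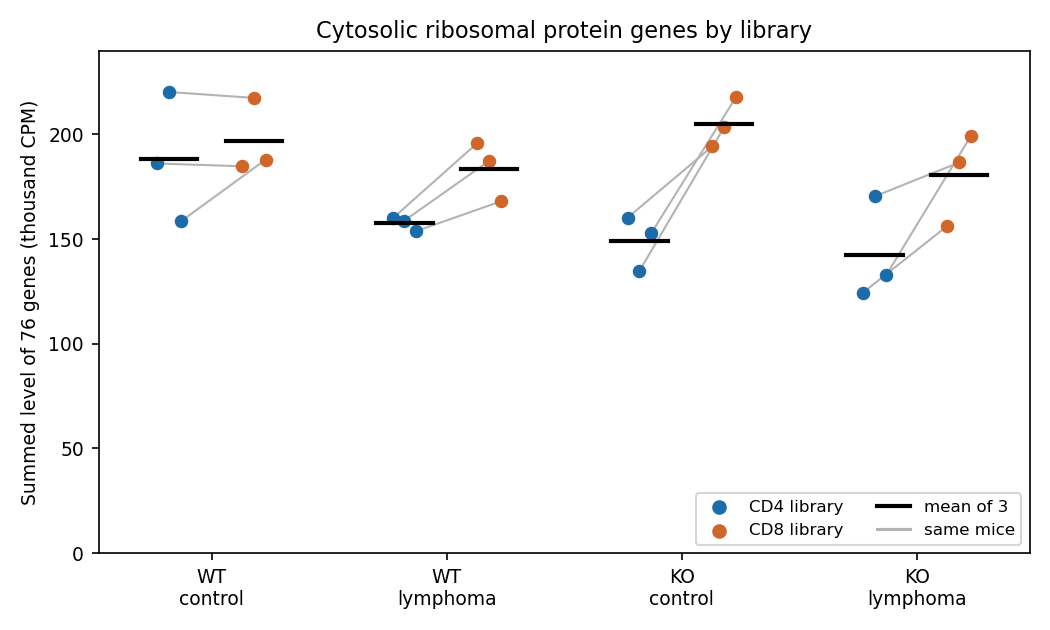
Summed level of the 76 members in CPM divided by 1000 (y axis) for each library, by genotype and transplant (x axis). CD4 libraries are blue and CD8 libraries orange, a grey line joins libraries of the same mice, and a black bar is the mean of 3. The 3 CD8 knockout controls, at 194332 CPM or more, all lie above the 3 CD4 knockout controls, at 160309 CPM or less.

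The clearest difference was between CD8 and CD4 libraries of untreated knockout mice, the comparison of the co-receptor classes within that genotype. By edgeR's quasi-likelihood test with Benjamini-Hochberg adjustment over all genes (threshold 0.05), 25 of 76 members rose in CD8 and none fell, where 2.35% of the 13232 genes tested rose and 2.6% fell. The median log2 fold change of the members was 0.46, against -0.02 over all genes. Of 76 values 75 were positive, against 47.4% of genes, the exception being the low-count copy Rpl3l. As the members varied together, their signs are not separate agreements. All 3 CD8 libraries lay above all 3 CD4 libraries for 62 members, against 13.1% of genes. At an unadjusted p under 0.05, 63 members were higher, against 8.71% of genes. With the pool of mice as a block, 46 members rose (background 3.93%), including all 25.

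These calls rested on few libraries. Without CD4 knockout control replicate 2, which had the lowest sum of its group, no member passed, with a median log2 fold change of 0.39 and 75 of 76 values positive. Without CD4 knockout control replicate 3 there were 6 calls, and without CD8 knockout control replicate 3 there were 7. CD4 knockout control replicate 2 also had the most erythroid transcript of the CD4 libraries, 33878 CPM against 4899 and 18794 CPM in the other replicates. In the CD8 knockout controls that sum was 1258 to 3515 CPM.

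Among small subunit proteins, 9 rose, among them Rps2, Rps6, Rps10, Rps13, Rps18, Rps26 and Rps28. Rps6, the protein phosphorylated by S6 kinases downstream of mTORC1, was at 1430.3, 933 and 1204 CPM in CD4 and 1962, 1868 and 2005 CPM in CD8, a log2 fold change of 0.71 ± 0.18 (adjusted p = 0.0231, edgeR). With the counts of its processed pseudogenes added, the value was 0.37 and the call ended (adjusted p = 0.241, edgeR). Rps10, a protein of the subunit head, averaged 2974 ± 232 CPM in CD4 and 4314 ± 336 CPM in CD8 (SD, n = 3), a log2 fold change of 0.54 ± 0.12. Rps2, at the mRNA entry, was the member nearest the threshold among those that passed, at 438 ± 37.8 and 625 ± 93.5 CPM (log2 fold change 0.51 ± 0.15, adjusted p = 0.0499, edgeR).

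Other small subunit proteins had values of similar size that did not pass without the pool block. Rpsa, which has a second name as a laminin receptor, had a log2 fold change of 0.50 ± 0.15 (adjusted p = 0.0517, edgeR), and Rps3, next to Rps2, 0.46 ± 0.14 (adjusted p = 0.0759, edgeR). For Rps19 and Rps24, both mutated in Diamond-Blackfan anaemia, the values were 0.37 ± 0.19 and 0.37 ± 0.19 (adjusted p = 0.32 and 0.321, edgeR). Rps4x, the X-linked member, had 0.45 ± 0.15 (adjusted p = 0.104, edgeR). With the pool block Rpsa, Rps3 and Rps4x passed (adjusted p = 0.0235, 0.0305 and 0.0282, edgeR). Rps19 and Rps24 did not pass with it (adjusted p = 0.117 and 0.0875, edgeR). Rps27a, made as a fusion with ubiquitin, was at 3763, 2753 and 3091 CPM in CD4 and 1975, 4895 and 4725 CPM in CD8. Its groups overlapped because of 1 library, CD8 knockout control replicate 1, which had the lowest Rps27a of all 24.

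Among large subunit proteins, 16 rose, among them Rpl3, Rpl10, Rpl10a, Rpl13, Rpl15, Rpl18, Rpl23a, Rpl27, Rpl28, Rpl32, Rpl36, Rpl36a, Rpl37, Rpl38 and Rpl41. Rpl23a, at the exit of the peptide tunnel, was at 2752, 2236 and 2663 CPM in CD4 and 4209, 3958 and 4223 CPM in CD8 (log2 fold change 0.70 ± 0.15, adjusted p = 0.00732, edgeR). Rpl41, a very short basic peptide at the joint between the subunits, was at 1329, 1128 and 1281 CPM and at 1782, 1793 and 1957 CPM (0.57 ± 0.13, adjusted p = 0.00948, edgeR). Rpl38, known for its part in the translation of Hox mRNAs, was at 481, 402 and 431 CPM and at 741, 623 and 685 CPM (0.64 ± 0.15, adjusted p = 0.0126, edgeR). None of these 3 genes overlapped between the groups.

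Rpl10, which joins the large subunit late in its assembly, had the highest log2 fold change of the 25, 0.81 ± 0.20 (adjusted p = 0.0168, edgeR). Its levels were 288, 305 and 325 CPM in CD4 and 828, 404 and 380.1 CPM in CD8. The 828 CPM belonged to CD8 knockout control replicate 1, and without that library the value was 0.36 with an adjusted p of 0.133 (edgeR). Rpl28, Rpl10a and Rpl38 were also highest in that library, and without it their adjusted p-values were 0.0979, 0.149 and 0.0625 (edgeR). Leaving it out gave 16 calls, 14 of them among the 25. Rpl5 and Rpl11, which bind Mdm2 together with 5S RNA and so link ribosome assembly to p53, did not pass without the pool block. Their log2 fold changes were 0.67 ± 0.23 (adjusted p = 0.112, edgeR) and 0.42 ± 0.16 (adjusted p = 0.147, edgeR). With the pool of mice as a block both passed (adjusted p = 0.0184 and 0.032, edgeR).

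**Figure D2:**
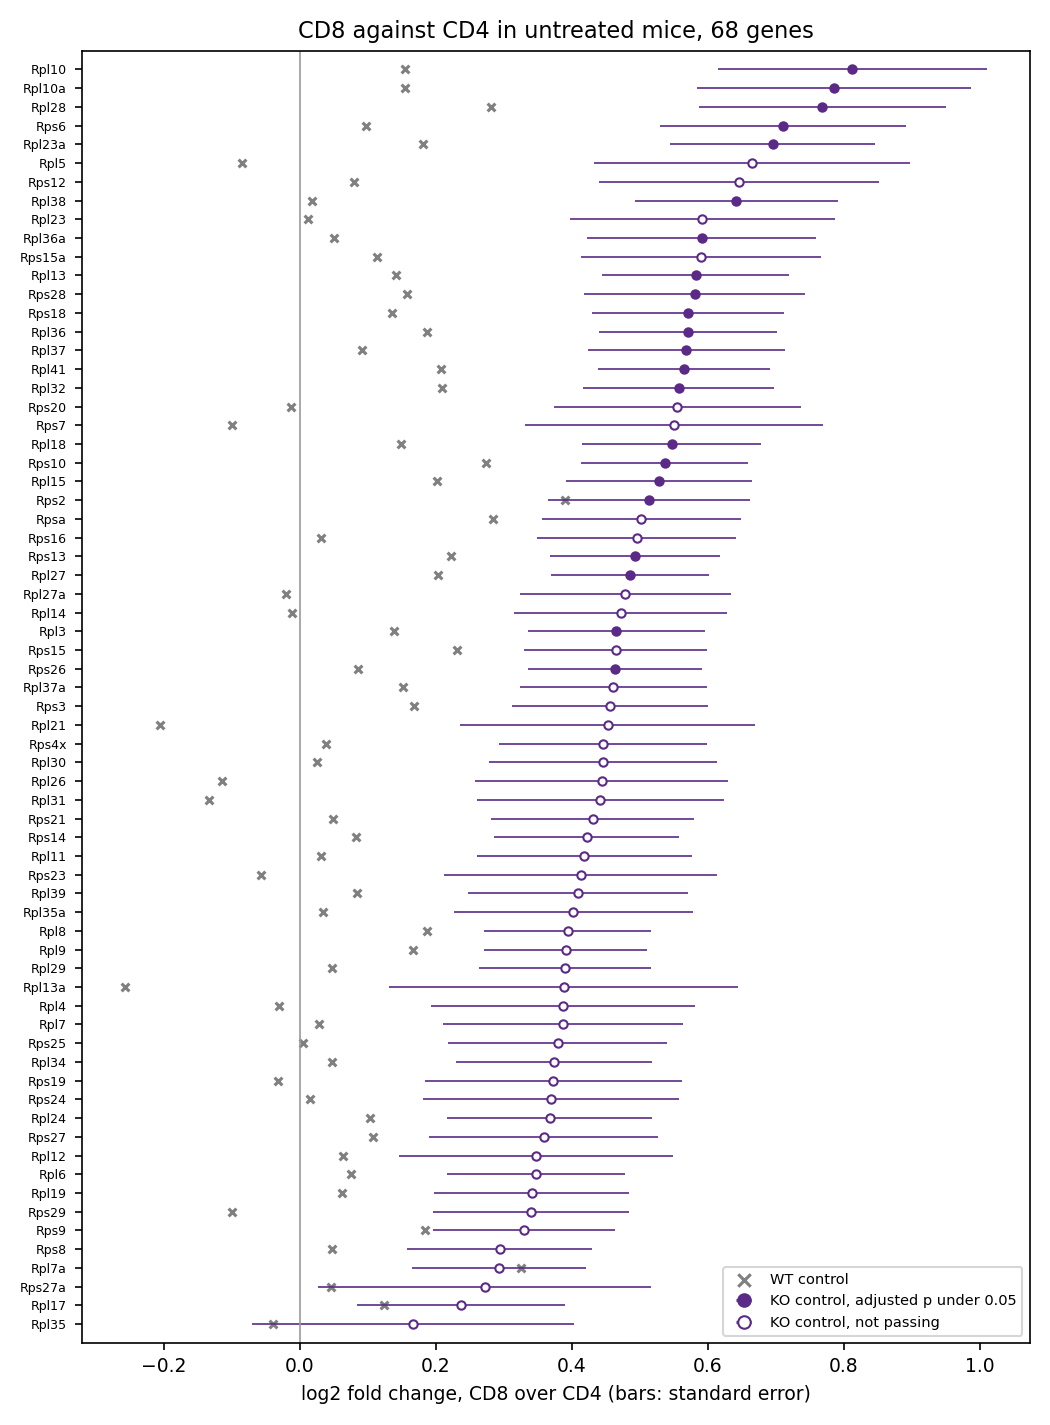
Log2 fold change of CD8 over CD4 (x axis) for 68 members (y axis), without the 4 low-count copies and 4 members not reported by name. Circles with standard error bars are untreated knockout mice, filled where the adjusted p was under 0.05, and crosses are untreated wild-type mice. The circles lie to the right of 0, and the filled ones include Rpl41 at 0.57 and Rpl10 at 0.81.

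In untreated wild-type mice, no member passed between CD8 and CD4, where 1.86% of genes were higher and 1.62% lower by the same test. The median log2 fold change was 0.08, and -0.03 to 0.19 over the alternatives, and 60 of 76 values were positive (background 50%). At an unadjusted p under 0.05, 3 members were higher (background 5.49%), and 8 did not overlap (background 9.43%). Rpl41 was at 1427, 1537 and 1142 CPM and at 1489, 1701 and 1549.7 CPM, with 0.21 ± 0.13 (adjusted p = 0.663, edgeR). Its groups overlapped. Rps2 and Rpl7a, the latter a large subunit protein, had the smallest p-values, with log2 fold changes of 0.39 ± 0.15 and 0.32 ± 0.13 (adjusted p = 0.248 and 0.279, edgeR).

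The difference between the knockout and wild-type values was tested directly, in a comparison added after the counts above were seen. No member passed (edgeR), where 0% of genes were higher and 0.0378% lower. With the pool block no member passed either, where 0.00756% of genes were higher and 0.0529% lower. As so few genes passed at all, the lack of calls says little about the members. The median difference of the members was 0.38 on the log2 scale, and 74 of 76 values were positive (background 46.6%). At an unadjusted p under 0.05, 25 members were higher, against 2.37% of genes. For Rpl38 the difference was 0.62 ± 0.21, with an adjusted p of 1 (edgeR).

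Markers of other cells moved with this comparison. In CD8 against CD4 knockout controls, the median log2 fold change was -2.90 over 11 erythroid genes, -1.44 over 16 B cell genes, -1.64 over 11 neutrophil genes and -0.67 over 18 mitosis genes, and all members of these 4 lists were lower in CD8, though none passed. Their part in the result was not tested. In knockout mice with lymphoma, 7 of 11 erythroid, all 16 B cell and 8 of 11 neutrophil genes had higher values in CD8, with medians of 1.25, 2.48 and 1.53, and none passed. There 1 library stood apart, CD8 knockout lymphoma replicate 1, with sums of 69007 CPM (erythroid), 3063 CPM (B cell) and 3730 CPM (neutrophil). The other CD8 libraries had 8277 and 1308, 665 and 336, and 491 and 254 CPM, and the CD4 libraries 2174 to 5780, 394 to 716 and 197 to 728 CPM.

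In those knockout mice with lymphoma, 4 members rose in CD8 and none fell, where 1.11% of genes rose and 1.24% fell. They included Rpl41 and Rps15, and 3 of these 4, all but Rps15, were also among the 25 of the untreated knockout mice. The median log2 fold change was 0.35, 75 of 76 values were positive (background 49.5%) and 26 members did not overlap (background 5.29%). With the pool block 10 members rose (background 2.06%). Rpl41 was at 1001, 1298 and 1322 CPM in CD4 and 1606, 1626 and 1938 CPM in CD8 (log2 fold change 0.51 ± 0.13, adjusted p = 0.0292, edgeR). Rps15, a protein of the subunit head, was at 864, 1108 and 952 CPM and at 1149.5, 1508.5 and 1525 CPM (0.52 ± 0.14, adjusted p = 0.0446, edgeR). For both genes every CD8 library was above every CD4 library. Without CD4 knockout lymphoma replicate 1, or CD8 knockout lymphoma replicate 2 or 3, no member passed. Without CD4 knockout lymphoma replicate 2 or CD8 knockout lymphoma replicate 1, the library rich in erythroid transcripts, 11 passed in each case.

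In wild-type mice with lymphoma no member passed (background 1.16% higher and 1.38% lower). There 74 of 76 values were positive (background 47.3%), with a median log2 fold change of 0.21, and 37 members did not overlap (background 7.98%). At an unadjusted p under 0.05, 9 were higher, against 3.88% of genes. The smallest p-value was that of Rps9, with 8685, 7123 and 9002 CPM in CD4 and 10596, 11134 and 9449.9 CPM in CD8 (log2 fold change 0.33 ± 0.13, adjusted p = 0.367, edgeR).

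**Figure D3:**
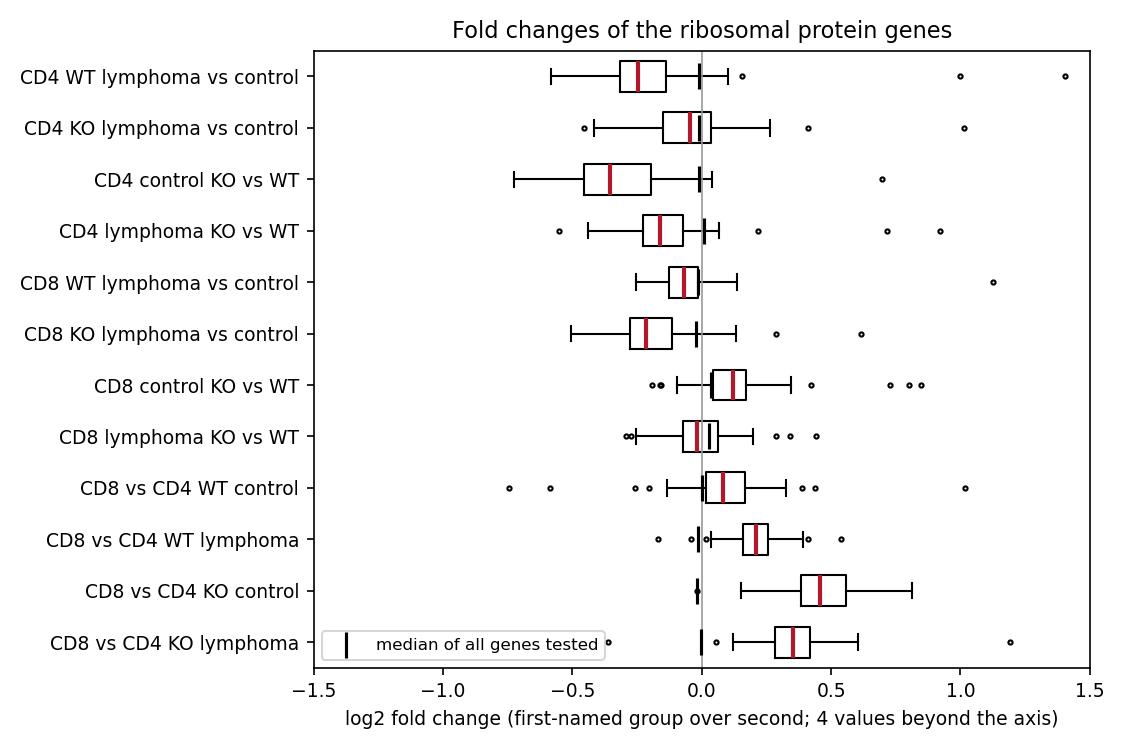
Log2 fold changes of the members (x axis) in 12 comparisons (y axis). Boxes hold the middle 50% of members with the member median in red, whiskers reach 1.5 box lengths, circles are members beyond them, and black ticks mark the median of all genes tested. The CD8 against CD4 boxes of knockout mice, with medians of 0.46 and 0.35, lie to the right of 0, and the box of CD4 controls, knockout against wild type, lies to the left with a median of -0.35.

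Loss of Atm was compared within each co-receptor. In CD4 controls, no member passed, where 1.94% of genes rose and 0.0703% fell. The median log2 fold change was -0.35 and 72 of 75 members tested had lower values in the knockout, against 50.9% of genes. Without CD4 wild-type control replicate 2, the library with the highest sum, the median was -0.21. At an unadjusted p under 0.05, 27 members were lower, against 5.68% of genes, and 20 members had all knockout libraries below all wild-type libraries, against 15% of genes. Rpl10 came nearest, at 453, 399 and 444 CPM in wild type and 288, 305 and 325 CPM in knockout (log2 fold change -0.51 ± 0.13, adjusted p = 0.0646, edgeR). DESeq2 called Rpl10 lower. Processed pseudogenes of Rpl10 were at 1089, 1359 and 942 CPM in wild type and 1083, 923 and 1056 CPM in knockout, so they overlapped. They held 70.6, 77.3 and 68.0% of the counts of gene and pseudogenes in wild type, and 79.0, 75.2 and 76.5% in knockout. Rpl5 was at 4623, 5816 and 3128 CPM in wild type and 3179.9, 2302 and 2798 CPM in knockout, so the groups overlapped (-0.73 ± 0.28, adjusted p = 0.205, edgeR). Rps29 did not overlap, with -0.48 ± 0.17 (adjusted p = 0.176, edgeR).

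Other lists moved in the same CD4 comparison. All 11 erythroid genes were higher in the knockout with a median of 2.62, though none passed. So were all 16 B cell genes (median 1.51, 1 passed) and all 15 monocyte and macrophage genes (1.12, 9 passed), whereas all 19 pan T genes were lower (-0.31, none passed). Their part in the result was not tested. The mouse identifiers start with S or B, letters whose meaning is not given. Among CD4 controls with B, the member sum was 158502 CPM in the wild-type library and 134858 and 152802 CPM in the knockout libraries. Among those with S, it was 186150 and 220283 CPM in wild type and 160309 CPM in knockout. Each letter leaves 1 library in an arm, so nothing was tested within a letter, and over both letters the sums of the 2 genotypes overlapped. Summed Y-linked transcripts in CD4 controls were 68.5, 199.6 and 121 CPM in wild type and 2.57, 1.21 and 56.4 CPM in knockout, without overlap. The part of the sex of the mice in this comparison was not tested.

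In CD8 controls the same contrast gave no call among 75 members (background 0.403% higher and 0.119% lower). The median was 0.12, and 64 of 75 values were positive (background 54.6%). At an unadjusted p under 0.05, 5 members were higher, against 8.99% of genes. The median was 0.04 without CD8 wild-type control replicate 1 or CD8 knockout control replicate 3. The 5 included Rpl10a, Rpl38, Rpl41 and Rps4l, and 0 were lower, against 5.72% of genes. With lymphoma, knockout against wild type gave no call for a member in CD4, where no gene passed (edgeR). The median was -0.16, and 67 of 75 values were lower (background 48.9%). Without CD4 knockout lymphoma replicate 1 or 2 the median was -0.08 or -0.26. At an unadjusted p under 0.05, Rps15, Rps16, Rps27 and Rpl30 were lower, 4 members, against 4.97% of genes, and Rps4l was higher. Without overlap 8 members were lower (background 6.01%) and Rps4l higher (background 6.63%). In CD8 there was no call either (median -0.02, background 0.0711% higher and 0.174% lower). There, 0 members were higher or lower at an unadjusted p under 0.05, against 8.51% and 9.48% of genes.

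Lymphoma was compared with no transplant within each genotype. No member passed in any of the 4 comparisons. In CD8 knockout libraries 68 of 75 members had lower values with lymphoma (background 52.5%), with a median of -0.21. The median was -0.12 without CD8 knockout lymphoma replicate 1, the library rich in erythroid transcripts, and -0.13 without CD8 knockout control replicate 3. By unadjusted p under 0.05, 11 were lower, against 12.5% of genes, and 20 did not overlap, against 12.6% of genes, while 1.39% of genes rose and 0.791% fell by adjusted p. Rps15 was at 1851, 1693 and 2009 CPM without and 1149.5, 1508.5 and 1525 CPM with lymphoma (log2 fold change -0.42 ± 0.13, adjusted p = 0.0788, edgeR). Rps16 was at 3374, 3581 and 4099.9 CPM and at 2232, 2983 and 2883 CPM (-0.46 ± 0.14, adjusted p = 0.0795, edgeR), and its value was -0.35 without replicate 1 of the libraries with lymphoma. DESeq2 called Rps14, Rps15, Rps16 and Rpl18 lower. Beside this, all 19 pan T genes were lower (median -0.72, 4 passed) and all 11 erythroid genes higher (3.03, none passed), and their part was not tested.

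In CD4 wild-type libraries 70 of 75 members had lower values with lymphoma (background 51%). The median was -0.25, or -0.12 without CD4 wild-type control replicate 2. By adjusted p, 1.62% of genes rose there and 0.0703% fell. At an unadjusted p under 0.05, 3 members were lower, against 4.53% of genes. These included Rpl30 and Rps24. In CD4 knockout libraries the median was -0.05 and no gene passed. There Rps15, Rps27 and Rpl30 were lower at an unadjusted p under 0.05 (background 6.04%) and Rps4l and Rpl3l higher (background 9.21%). Without overlap, 5 members were lower (background 9.85%) and 2 higher, Rpl10 and Rpl3l (background 9.56%). Rpl3l met the count rule only through libraries with lymphoma, so its place in both counts is no support for a rise. In CD8 wild-type libraries the median was -0.07, and 0 members were lower at an unadjusted p under 0.05, against 5.98% of genes. By adjusted p, 1.26% of genes rose there and 0.158% fell. The interaction of genotype and lymphoma had no call for a member in either co-receptor, where no gene passed (edgeR), with medians of 0.17 in CD4 and -0.12 in CD8. At an unadjusted p under 0.05 the interaction was positive for 1 member in CD4, Rpl10 (background 1.13%), and negative for none (background 2.51%). In CD8 it was positive for none (background 1.23%) and negative for none (background 2.27%). The lymphoma response also did not pass a test of its difference between CD8 and CD4 for a member. No gene passed there without the pool block (edgeR). The member medians were 0.13 in wild type and -0.10 in knockout.

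The 4 low-count copies are given by themselves because few counts stand behind them. Rps4l lies at chr6:148354656-148355598 and is annotated in GENCODE M21 as a transcribed processed pseudogene, an autosomal copy of Rps4x. It was higher with lymphoma in each of the 4 pairs of groups, without passing. In CD4 wild-type libraries it was at 5.75, 7.33 and 5.53 CPM without and 13.4, 11.8 and 12.2 CPM with lymphoma (log2 fold change 0.997 ± 0.32, adjusted p = 0.149, edgeR). In CD8 wild-type libraries it was at 6.20, 11.9 and 7.09 CPM and at 17.7, 21.7 and 14.9 CPM (1.13 ± 0.34, adjusted p = 0.11, edgeR), which DESeq2 called. The libraries with lymphoma did not overlap those without it in these 2 wild-type comparisons.

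In knockout libraries Rps4l was at 7.82, 7.55 and 15.3 CPM against 19.8, 13.6 and 28.1 CPM in CD4 (1.01 ± 0.30, adjusted p = 0.178, edgeR). In CD8 knockout libraries it was at 10.8, 11.1 and 22.6 CPM against 23.9, 17.2 and 27.8 CPM (0.62 ± 0.33, adjusted p = 0.243, edgeR). Here the groups overlapped. Rps4x itself, by comparison, was lower with lymphoma in CD8 wild-type libraries by a log2 fold change of -0.19 ± 0.13 (adjusted p = 0.483, edgeR). Counts of Rps4l were 37 to 249 per library.

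**Figure D4:**
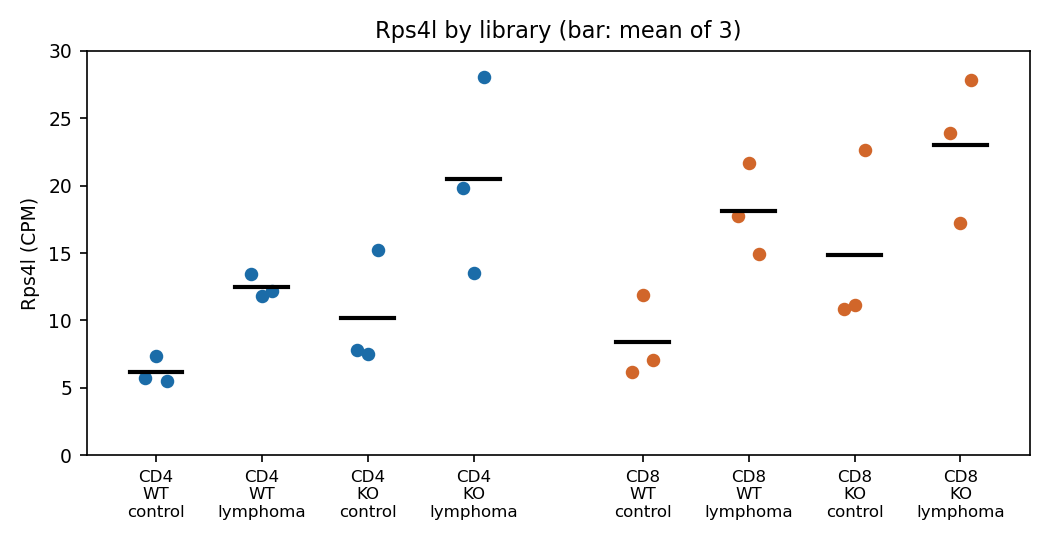
Level of Rps4l in CPM (y axis) in each library of the 8 groups (x axis), CD4 in blue and CD8 in orange, with a bar at the mean of 3. In each co-receptor and genotype the mean is higher with lymphoma, and in wild-type mice no library with lymphoma falls as low as the controls.

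Rpl3l, the muscle paralogue of Rpl3, had 1, 3 and 3 counts in CD8 knockout controls and 29, 20 and 43 with lymphoma, a log2 fold change of 3.48 ± 1.195 that did not pass (adjusted p = 0.102, edgeR). In CD8 wild-type libraries with lymphoma it had 0, 0 and 24 counts, so a single library held all of it. Rpl39l, the testis paralogue of Rpl39, had 1 to 15 counts per library, and Rpl6l, annotated as a processed pseudogene, 18 to 80 counts.

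The other 72 members varied together. The median correlation of log2 CPM over all pairs of them was 0.78 across the 24 libraries, a description in which the pairs share libraries, groups and scaling. Rps18, Rpl23a and Rpl13 were most like the rest, with mean correlations of 0.84, 0.83 and 0.83. Rpl10 (0.37), Rpl35 (0.41) and Rps27a (0.47) were least like it. The standard deviation of log2 CPM over all libraries was smallest for Rpl6 (0.19) and Rpl27 (0.19) and, outside the copies, largest for Rpl5 (0.37). Rpl13a reached 10948 CPM in CD4 wild-type control replicate 2 against 5449.8 and 5468 CPM in the other libraries of that group. That library was also the highest of its group for Rpl5, Rps7 and Rpl21.

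**Figure D5:**
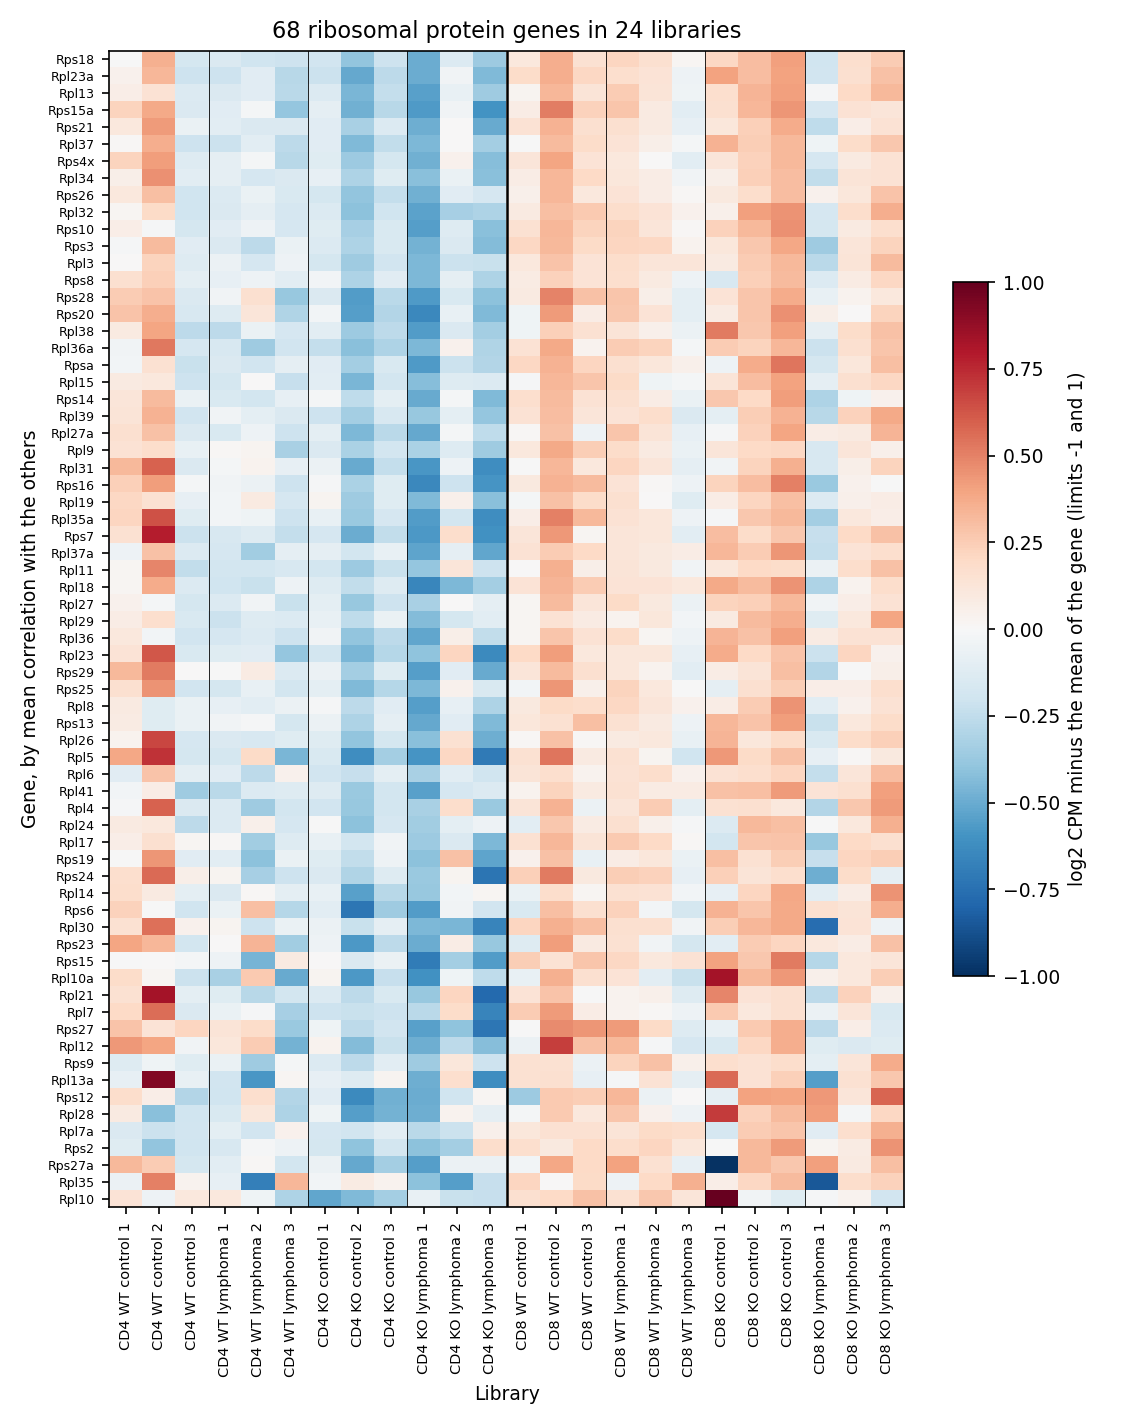
Log2 CPM minus the gene's mean, as colour, for the same 68 members (y axis, ordered by mean correlation with the others) in 24 libraries (x axis). Red is above and blue below the mean, limited at -1 and 1, thin lines part the groups and the thick line parts CD4 from CD8. Most genes share 1 pattern, with CD4 knockout libraries mainly blue and CD8 controls mainly red, and Rps27a and Rpl10 near the bottom depart from it in CD8 knockout control replicate 1.

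Many members have near-identical processed copies, and the assignment of short tags to gene or copy is uncertain. The table held 265 such rows named after members, 241 of them with a count, for 56 members. For 10 members they took over 30% of the counts of gene and copies together, among them Rpl10 (72.7%), Rpl39 (70.7%), Rpl10a (68.9%), Rps23 (66.9%), Rpl38 (48.6%), Rpl28 (43.9%) and Rps6 (41.1%). With the copies added to their gene, 22 members rose in CD8 against CD4 knockout controls and 5 in knockout mice with lymphoma. The call of Rps6 ended, as given above, and so did that of Rpl38, with a log2 fold change of 0.54 and an adjusted p of 0.0525 (edgeR). Rpl10 had 0.45 and stayed past the threshold (adjusted p = 0.016, edgeR). In CD8 knockout control replicate 1 the copies held 58.3% of Rpl10 and 16.3% of Rps27a counts, against 76.2% and 78.4%, and 8.29% and 9.46%, in the other replicates.

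Other genes of translation were read from lists beside the members. In CD8 against CD4 knockout controls, 6 of 27 other TOP genes rose and none fell, with a median of 0.27, beside the 2.35% of all genes that rose. They were the elongation factors Eef1a1 (0.47 ± 0.11), Eef1b2 (0.58 ± 0.13), Eef1g (0.51 ± 0.12) and Eef2 (0.38 ± 0.11), the small subunit scaffold Rack1 (0.55 ± 0.13) and the stalk protein Rplp0 (0.59 ± 0.13). Of 50 ribosome biogenesis genes 3 rose, Ppan, Utp20 and Mybbp1a, with a median of 0.32 and 47 positive values. Leaving out CD4 knockout control replicate 2 left 0 TOP genes and 1 biogenesis gene past the threshold. Eef2 did not pass with any 1 of the 6 libraries left out (adjusted p = 0.0757 to 0.178, edgeR). Eef1a1 also did not pass without CD8 knockout control replicate 1, nor Rack1 without CD8 knockout control replicate 3 (adjusted p = 0.0824 and 0.0725, edgeR). None of the biogenesis genes passed without CD4 knockout control replicate 3, and 1 passed without CD4 knockout control replicate 1, CD8 knockout control replicate 1 or CD8 knockout control replicate 3. None of 79 mitochondrial ribosomal proteins passed (median 0.13). Of 22 growth control genes only Rptor, the mTORC1 subunit raptor, rose, by 0.74 ± 0.15, and of 22 genes for Mdm2 and p53 targets Bbc3 (1.40 ± 0.17) and Aen (0.45 ± 0.10) rose. Rptor and Bbc3 passed with each of the 6 libraries left out in turn, and Aen did not without CD4 knockout control replicate 2 or CD8 knockout control replicate 1 (adjusted p = 0.0501 and 0.068, edgeR). In knockout mice with lymphoma none of the 27 TOP genes and none of the 50 biogenesis genes passed (medians 0.24 and 0.20). In CD4 controls, knockout against wild type, Rplp1 was the only TOP gene to pass, lower by a log2 fold change of -1.37 ± 0.23. It passed only with all libraries or without CD4 wild-type control replicate 2 or 3, and its adjusted p was 0.0676 to 0.141 without any other library (edgeR).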

How the data were processed

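The deposited table held estimated counts per gene for 24 libraries, made by the authors; Salmon 0.11.3 and the build GRCh38 are named in the submitters' processing notes without a role, although the gene names are those of mouse. Whether the counting used strand, and the mouse annotation, are not given in the sources used here. Estimated counts were rounded to whole numbers. 2 genes with a letter in a count cell were dropped. CPM are counts over the TMM-scaled library size of all 24 libraries (factors 0.947 to 1.12). Tests used edgeR 4.0.16 (R 4.3.3, robust quasi-likelihood, at least 10 counts by filterByExpr with a total of at least 15): a fit of 12 libraries per co-receptor (12808 genes in CD4, 12650 in CD8, 75 members tested in each) and a fit of 24 libraries for CD8 against CD4 (13232 genes). DESeq2 1.42.0 and limma 3.58.1 were alternatives. The fits were also run on simulated data, with larger planted changes than most members had here and without pairing of libraries. That run does not bear on the calls. Libraries were grouped by their titles. As pools held different mice, p-values rest on the spread between libraries of the same group, over the 12 or 24 libraries of the fit. Outside wild-type lymphoma these were libraries of pooled mice, so the spread between single mice was not measured there.

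Named genes were fixed roles (such as Rpsa, Rps6, Rpl5, Rpl10), the copies ending in l, members that passed (up to 20 by p), the 5 with the largest change where under 5 passed, the 5 most and 5 least variable members, and up to 4 passing genes of each other list. Rps14, Rps23, Rps28, Rps29, Rpl21, Rpl35, Rpl36a, Eef1a1 and Eef2, and the members listed at an unadjusted p, were named after their values were seen. The members and lists were chosen with earlier results of these data known. CD4 and CD8 libraries of a pool carry the same mouse identifiers, which pairs them. Their deviations from group means correlated at -0.02 to 0.52, over 0.1 in 10 of 12 pairs. Values of 4 members are not reported by name here. Sequences are from RefSeq promoters on GRCm38.p6 and positions from GENCODE M21. The comparison of knockout effects between CD8 and CD4 was added after the other results were seen. Alternatives were other scaling, filters, tools, blocks and libraries left out.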

Additional observations from a re-analysis of the deposited data

How the results depend on the processing

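In CD8 against CD4 knockout controls (25 calls), the count was 16 with library totals only, 15 with no filter, 42 by DESeq2, 63 by limma and 46 with the mouse pool as a block, and 0 to 17 with 1 library left out. In knockout mice with lymphoma (4 calls) it was 0 with upper-quartile factors, library totals or no filter, 10 by DESeq2, 9 by limma, 10 with the pool block and 0 to 11 with 1 library left out. With the pool block 3.93% and 2.06% of all genes rose. The share of all genes called under the other settings is not given here, so these counts alone are no result about the members. The same holds for the counts above with libraries left out or copies added. With library totals the median of all genes was -0.11 and -0.12 on the log2 scale in these comparisons, against -0.019 and -0.003 with TMM. The member medians were then 0.37 and 0.23. Over all 16 alternatives the member medians stayed positive, at 0.37 to 0.51 and 0.23 to 0.50. Where edgeR made no call, limma made 1 call in CD8 against CD4 wild-type controls, 1 in wild-type lymphoma, 1 in CD4 knockout with and without lymphoma and 2 in CD4 controls by genotype. DESeq2 made 1 there, 1 in CD8 wild type with and without lymphoma and 4 in CD8 knockout with and without lymphoma. With 1 library left out, the last gave 0 to 3 calls and CD4 knockout with and without lymphoma 0 to 1. For these calls the cause was not tested. Leaving libraries out of the other gene lists was chosen after seeing the data. The member median changed sign with 1 library left out in CD8 against CD4 wild-type controls (-0.03 to 0.19), CD4 knockout with and without lymphoma (-0.18 to 0.02), CD8 lymphoma by genotype (-0.11 to 0.07), CD8 wild type with and without lymphoma (-0.14 to 0.01) and the difference of knockout responses (-0.20 to 0.01), and by limma in the CD4 interaction (-0.04). Signs of single genes reversed as follows, none past the threshold when reversed. With 1 library left out, Rpl3l ranged from -0.23 (without CD4 wild-type control replicate 2) to 1.85 in the CD4 interaction. Without that same library it was lowest in the difference of knockout effects (-0.37 to 1.22), highest in CD8 against CD4 wild-type controls (-1.16 to 0.36), and -0.13 in the difference of wild-type responses. The latter ranged from -5.05 (without CD8 wild-type lymphoma replicate 3) to 1.91, and lymphoma in CD8 wild type from -3.56 (without the same library) to 2.95, with -1.43 and -0.38 by limma. Rpl10 ranged from -0.63 to 0.022 for lymphoma in CD8 knockout and from -0.62 to 0.031 in the CD8 interaction, highest without CD8 knockout control replicate 1. Rpl39l ranged from -0.12 (without CD4 wild-type lymphoma replicate 2) to 0.99 in CD8 against CD4 wild-type lymphoma, and from -1.13 to 0.34 (without CD8 knockout control replicate 3) in the difference of knockout responses. With copies added, Rps6 was -0.004 in the difference of knockout effects with lymphoma. Within a co-receptor, libraries share only a replicate number, whose deviations correlated at -0.21 to 0.32 over 36 pairs, and the replicate block left all 10 counts at 0. The pool block changed no other call. With 3 libraries per group, small changes can be missed.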
